A study of Mus musculus with 23 samples.

Results

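The genes described here are 10 secreted ligands of the transforming growth factor beta (TGF-β) superfamily: Tgfb1, Tgfb2, Tgfb3, Bmp2, Bmp4, Bmp5, Bmp6, Inhba, Gdf15 and Lefty1. They were found by their symbols in the deposited table, and all 10 were among its 35322 genes. RNA-Seq of polyA RNA from the lung of 23 Balb/c offspring was analysed, and the question was how maternal exposure to airborne particulate matter (PM2.5) bears on the lung's response to allergen in the adult offspring. Per the study's methods, the dams received saline (Sham) or PM2.5 in saline by the intranasal route before mating, through gestation and until weaning, the offspring were female and 13 weeks old, and the RNA came from a piece of the right lower lobe. The 7 Sham and 7 PM offspring had no challenge with ovalbumin (OVA). Their labels give phosphate-buffered saline as the challenge and the methods give nebulised saline. The methods do not state plainly whether these offspring were sensitised with OVA. The 5 Sham-OVA and 4 PM-OVA offspring were sensitised with OVA on alum and challenged with nebulised OVA, a model of allergic airways disease. The offspring were never given PM2.5 themselves, and which dam each library came from was not given in the sources used here.

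Ligands of this superfamily are secreted as dimers and bind paired type I and type II receptors, which phosphorylate SMAD proteins. TGF-βs and activins act through Smad2 and Smad3, and bone morphogenetic proteins (BMPs) act through Smad1, Smad5 and Smad9. TGF-β is stored in the matrix in a latent form and is known in the asthmatic airway for its part in remodelling and immune regulation, while BMPs pattern the developing lung and maintain its vessels and epithelium. BMPs are held in check by secreted antagonists, and Lefty1 is itself an inhibitor of the ligand Nodal.

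Challenge with OVA was followed by opposite movements within this family. Tgfb1 was higher in both maternal groups, 1.94-fold in the offspring of Sham dams and 1.76-fold in those of PM2.5 dams, whereas Tgfb2, Bmp2, Bmp5 and Bmp6 were lower by 2.23-fold to 6.55-fold. Lefty1 was 2.78-fold higher in PM-OVA against PM. Its 1.63-fold difference in Sham-OVA against Sham did not pass the test with the deposited scaling and passed it under each of 5 other scalings or count models, and in 10 of 28 alternatives in all. No ligand differed between PM and Sham, or between PM-OVA and Sham-OVA, beyond the spread between animals.

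The values are RPM, the reads on a gene scaled to the total of its library, and folds and log2 differences were taken on log2(RPM + 0.5). A gene is called higher or lower where limma's Benjamini-Hochberg adjusted p, over all 16795 genes tested, was under 0.05. The members passed the filter on low values, 10 of 10. Reads on genes ranged from 2298645 to 12355561 in the OVA libraries and from 13089691 to 17393579 in the saline libraries, so depth and challenge cannot be told apart. The 3 shallowest were Sham-OVA replicate 3, PM-OVA replicate 3 and PM-OVA replicate 4, and without them PM-OVA kept only replicates 1 and 2. The lowest correlation between replicates was 0.899 for Sham-OVA libraries and 0.895 for PM-OVA libraries against 0.971 in Sham and 0.974 in PM. Sham replicate 1 carried Y-linked transcripts above 10 RPM although the study describes female offspring, and without it 8 members were called in Sham-OVA against Sham, as with it. In whole lung, fewer cells of a type and less RNA per cell cannot be told apart. In the shallowest library 1 read was worth 0.311 RPM, against at most 0.0688 RPM in a saline library.

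The sequence just upstream of 3 members is shown because Tgfb1 rose while Tgfb2 and Bmp5 fell in the same libraries. Each line holds the 240 bases from 250 to 11 bases before the RefSeq start site in GRCm38.p6, written 5′ to 3′ on the gene's strand, at chr7:25686752-25686991 (plus strand) for Tgfb1, chr1:186706000-186706239 (minus strand) for Tgfb2 and chr9:75775115-75775354 (plus strand) for Bmp5. Capitals mark matches on either strand to the AP-1 site TGANTCA, the SMAD box CAGAC, the BMP SMAD box GGCGCC, the GC box GGGCGG or the TATA box TATAAA.
Tgfb1: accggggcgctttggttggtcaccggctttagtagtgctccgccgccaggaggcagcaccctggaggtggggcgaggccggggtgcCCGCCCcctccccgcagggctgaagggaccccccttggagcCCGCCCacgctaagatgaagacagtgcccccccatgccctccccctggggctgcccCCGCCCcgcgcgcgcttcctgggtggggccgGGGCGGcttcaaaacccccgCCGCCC
Tgfb2: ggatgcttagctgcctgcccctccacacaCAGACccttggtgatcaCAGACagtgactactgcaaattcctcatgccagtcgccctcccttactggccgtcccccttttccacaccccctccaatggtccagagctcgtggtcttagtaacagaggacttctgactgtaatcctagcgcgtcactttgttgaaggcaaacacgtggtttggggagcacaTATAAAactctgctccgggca
Bmp5: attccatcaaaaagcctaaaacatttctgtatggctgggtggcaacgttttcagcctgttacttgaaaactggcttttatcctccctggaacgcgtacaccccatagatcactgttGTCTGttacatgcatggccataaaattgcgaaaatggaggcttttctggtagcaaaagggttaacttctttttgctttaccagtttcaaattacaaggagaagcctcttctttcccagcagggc
The Tgfb1 window held 5 GC boxes, which 31.3% of 32851 RefSeq windows of this length hold at least once. The Tgfb2 window held 2 SMAD boxes and 1 TATA box, which 40.9% and 12.1% of the windows hold. The Bmp5 window held 1 SMAD box. Windows of other members held such matches too. Those of Bmp4 and Bmp6 each held 1 GC box, that of Bmp6 and both windows of Gdf15 each held 1 SMAD box, and that of Inhba held 1 TATA box. Whether matches go with the direction of a ligand was not tested. None of the 3 windows held the AP-1 site (6.58% of windows) or the BMP SMAD box (9.08%). A match is a description of letters, not of binding. RefSeq windows matched 7 of the 10 members; Tgfb3, Bmp2 and Lefty1 were not among them.

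Of the 10 ligands, 8 were called in each OVA comparison. In Sham-OVA against Sham 2 were higher (Tgfb1 and Gdf15) beside 20.6% of all genes, and 6 were lower (Tgfb2, Tgfb3, Bmp2, Bmp4, Bmp5 and Bmp6) beside 47.5% of all genes. In PM-OVA against PM 2 were higher (Tgfb1 and Lefty1) beside 20.1%, and the same 6 were lower beside 45.2%. The counts thus lie near those of all genes. The median log2 difference over the members was -0.70 and -0.82, beside -0.48 and -0.43 over all genes tested. Because the median of all genes lay below 0, the split depends on the scaling. Under 5 other scalings or count models 3 members were higher and 4 to 5 lower in Sham-OVA against Sham, and 2 were higher and 4 to 5 lower in PM-OVA against PM, while the share of all calls that were higher moved from 30.2% to between 43.1% and 49.6% and from 30.8% to between 44.7% and 50.1%.

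**Figure D1:**
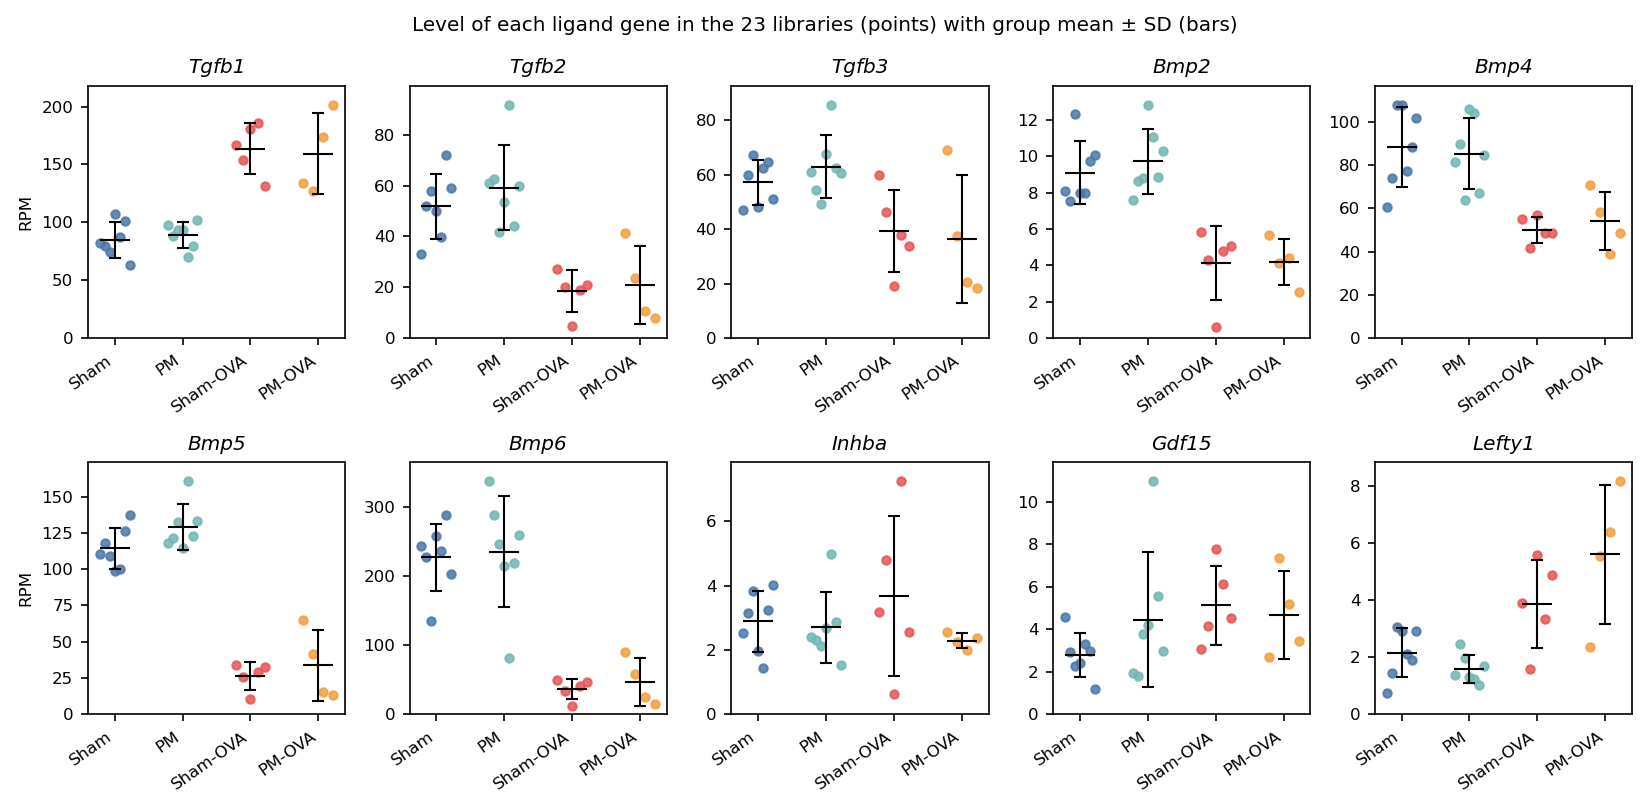
Level of each of the 10 ligand genes in RPM (linear axes from 0) in every library, with points for libraries in the 4 groups and bars for the group mean ± SD (n = 7, 7, 5 and 4). Tgfb1 sits higher in all 9 OVA libraries than in all 14 saline libraries, and Tgfb2, Bmp2 and Bmp5 sit lower in each OVA group than in its own saline group.

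The groups did not overlap for 6 members in Sham-OVA against Sham (Tgfb1, Tgfb2, Bmp2, Bmp4, Bmp5 and Bmp6), beside 48.1% of all genes, and for 4 members in PM-OVA against PM (Tgfb1, Tgfb2, Bmp2 and Bmp5), beside 41.9%. At the study's own threshold, an adjusted p under 0.000001, here taken with an absolute log2 difference over 1, limma called 0 members in either comparison, beside 4.51% and 0.286% of all genes. In those comparisons 9 and 8 members had an unadjusted p under 0.05. DESeq2, the study's own tool, run here on the reads recovered from the RPM values, called 3 members at that threshold in Sham-OVA against Sham (Tgfb1, Bmp5 and Bmp6) beside 28.7% of all genes, and 4 in PM-OVA against PM (the same 3 and Lefty1, adjusted p = 1.34e-07) beside 16.8%. At the adjusted p of 0.05 used here DESeq2 and edgeR each called 7 and 6 members.

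Among the TGF-β isoforms, Tgfb1 is the one known for its expression by immune cells and for inducing regulatory T cells. Tgfb1 (ENSMUSG00000002603, GENCODE vM21, chr7:25687002-25705077, plus strand) had a lowest, median and highest value of 63.0, 81.6 and 107 RPM in Sham and 70.0, 93.1 and 102 RPM in PM. In Sham-OVA its 5 values were 167, 154, 181, 186 and 132 RPM, and in PM-OVA its 4 values were 134, 127, 174 and 202 RPM. All 9 OVA values exceeded all 14 saline values. The log2 difference was 0.95 (SE 0.15, limma adjusted p = 6.51e-05) for the Sham groups and 0.82 (SE 0.16, limma adjusted p = 7.13e-04) for the PM groups. With edgeR on the recovered reads they were 1.44 and 1.28. The log2 differences as reported placed Tgfb1 at percentile 88.3 and 87.2 of the log2 differences of all genes tested.

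Tgfb2 and Tgfb3 signal through the same receptors and are known for roles in epithelial and mesenchymal development. Tgfb2 (chr1:186622792-186705989, minus strand) had a lowest, median and highest value of 33.1, 51.9 and 71.9 RPM in Sham and 41.6, 59.98 and 91.8 RPM in PM. It stood at 27.1, 20.1, 4.66, 18.96 and 20.7 RPM in Sham-OVA and at 41.4, 23.6, 10.6 and 7.99 RPM in PM-OVA. Each OVA group lay below its saline group without overlap, although PM-OVA replicate 1 (41.4 RPM) lay just under the lowest PM library (41.6 RPM), and the shallow Sham-OVA replicate 3 was lowest of all. The log2 difference was -1.63 (SE 0.34, limma adjusted p = 6.56e-04) and -1.72 (SE 0.37, limma adjusted p = 0.00154), and the latter was -0.87 without the 3 shallowest libraries. With the trend of the differences on transcript length and GC removed they were -0.75 and -0.85, and edgeR gave -1.08 for the former. Tgfb2 was still called in each of these.

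Tgfb3 (chr12:86056745-86079041, minus strand) had a lowest, median and highest value of 47.1, 60.03 and 67.4 RPM in Sham and 49.3, 60.9 and 85.8 RPM in PM. It stood at 60.04, 46.4, 19.3, 37.7 and 34.0 RPM in Sham-OVA and at 69.1, 37.3, 20.4 and 18.3 RPM in PM-OVA. Replicate 1 of each OVA group lay among the saline libraries, and the other 4 and 3 libraries lay below all of them. The log2 difference of -0.61 (SE 0.22, limma adjusted p = 0.0246) in Sham-OVA against Sham lay near the median of all genes, -0.48, and its call was lost under all 5 other scalings or count models (-0.26 to -0.12) and with the trend of the differences on transcript length and GC removed (-0.28, adjusted p = 0.147). In PM-OVA against PM the difference was -0.97 (SE 0.30, limma adjusted p = 0.0126). That call was lost without PM-OVA replicate 3 (-0.77, adjusted p = 0.0535), without PM-OVA replicate 4 (-0.72, adjusted p = 0.0509) and under 3 of the 5 scalings or count models, and also without the 3 shallowest libraries (-0.29, adjusted p = 0.300). The last of these fits kept only PM-OVA replicates 1 and 2. In Sham-OVA against Sham the difference was -0.38 without Sham-OVA replicate 3 (adjusted p = 0.0304), and without Sham-OVA replicate 5 it was -0.58 and no longer called (adjusted p = 0.0520).

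Read per kilobase of exon, Tgfb1 held a larger share of the 3 isoforms in OVA lung than in saline lung, and Tgfb2 was last in every group. Tgfb1 made up 39.4% ± 5.76 (SD, n = 7) of their summed level in Sham and 69.1% ± 9.73 (n = 5) in Sham-OVA, and 38.4% ± 6.43 (n = 7) in PM and 69.6% ± 16.9 (n = 4) in PM-OVA. Tgfb2 went from 20.9% to 6.60% and from 21.7% to 7.64%, and Tgfb3 from 39.7% to 24.3% and from 39.9% to 22.7%. These shares do not depend on the scaling of a library, and the group ranges of the Tgfb1 share did not overlap (33.0 to 48.2% in Sham, 59.6 to 84.7% in Sham-OVA, 25.2 to 45.9% in PM and 49.1 to 85.5% in PM-OVA). The summed level was 42.7 ± 5.11 and 47.3 ± 6.42 RPM per kb in Sham and Sham-OVA and 46.5 ± 4.96 and 45.9 ± 6.18 RPM per kb in PM and PM-OVA, with overlapping ranges. With the longest transcript as the length in place of all exons, the Tgfb1 share was 54.7% in Sham and 80.7% in Sham-OVA, and the sum was 60.1 ± 7.44 and 78.8 ± 9.21 RPM per kb, so the rank of Tgfb1 over Tgfb3 in saline lung and the likeness of the sums rest on the length used.

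**Figure D2:**
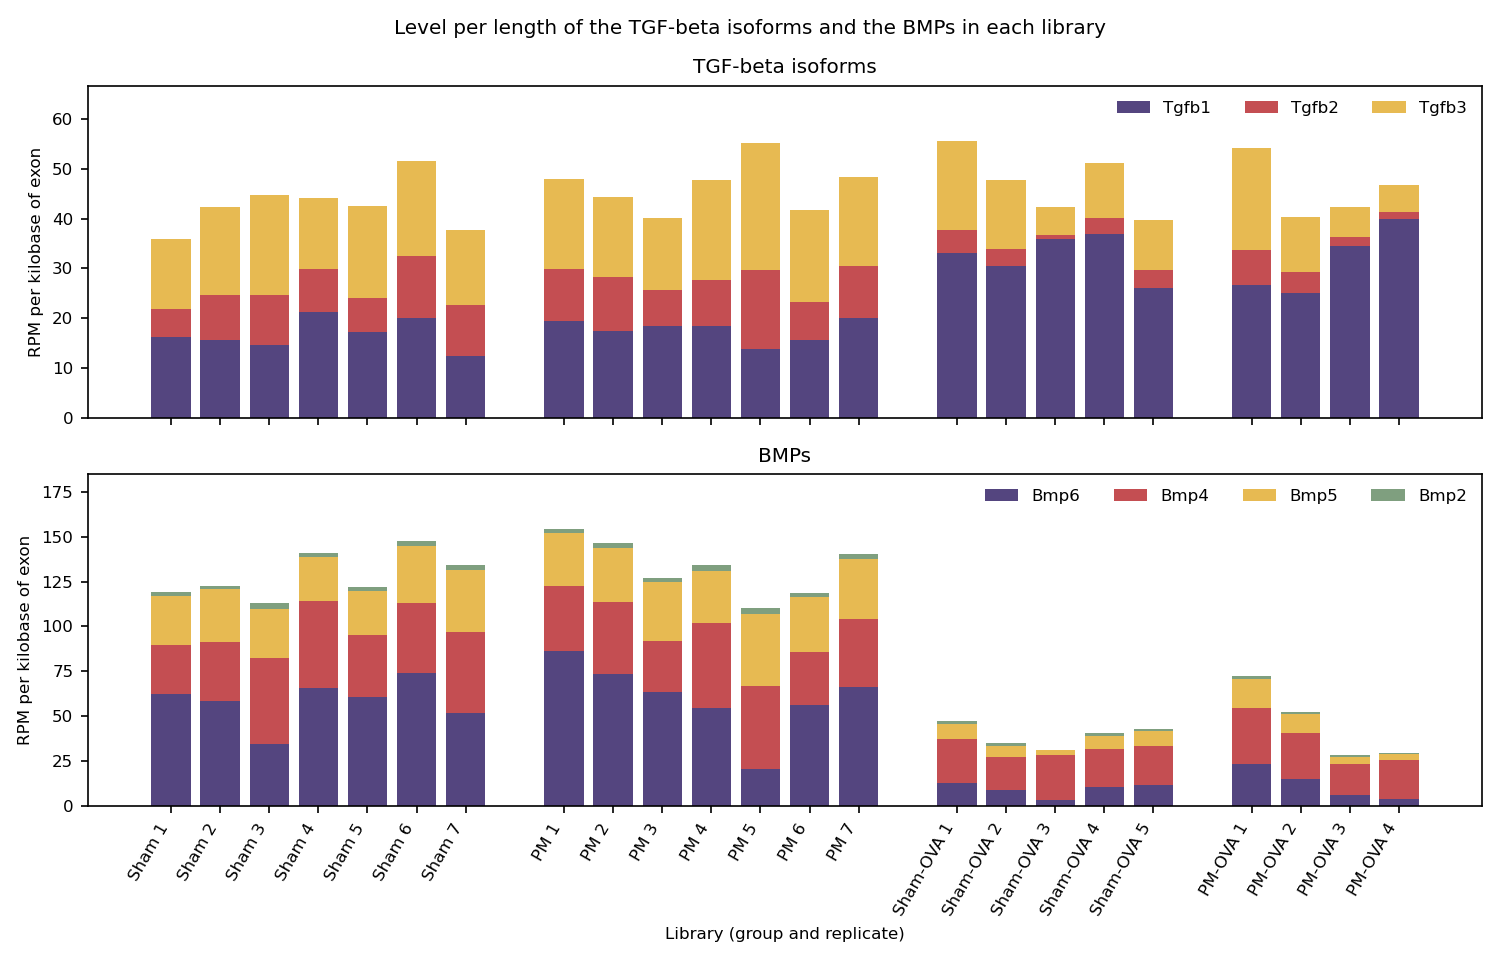
Level in RPM per kilobase of exon of the TGF-β isoforms (upper) and of the BMPs (lower), stacked, in each of the 23 libraries, named by group and replicate. The Tgfb1 segment is taller in every OVA library than in any saline library while the Tgfb2 segment is shorter in each OVA group than in its own saline group, and the BMP stacks fall from between 110.0 and 154 RPM per kb in the saline libraries to between 28.7 and 72.4 in the OVA libraries.

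Bmp5 and Bmp6 belong to the same subgroup of BMPs, and Bmp6 is best known for controlling hepcidin and so iron in the liver. Bmp6 (ENSMUSG00000039004, chr13:38345107-38500302, plus strand) was the member with the largest level per kilobase in saline lung and the largest fall. Its lowest, median and highest values were 135, 236 and 288 RPM in Sham and 80.9, 247 and 337 RPM in PM. It stood at 50.3, 34.3, 12.7, 40.5 and 46.3 RPM in Sham-OVA and at 90.6, 58.7, 24.6 and 15.1 RPM in PM-OVA. The Sham groups did not overlap. In the PM groups only PM-OVA replicate 1 (90.6 RPM) lay above a saline library, PM replicate 5 (80.9 RPM). On the log2 scale Bmp6 differed by -2.71 (SE 0.29, limma adjusted p = 2.01e-06) and -2.52 (SE 0.46, limma adjusted p = 5.74e-04), at percentile 2.64 and 2.85 of all genes tested, and the latter was -1.57 without the 3 shallowest libraries. Bmp6 overlaps Txndc5, on the other strand, by 224 bases, and 3.29% of the 100-base windows along its exons also lie in Txndc5, which reached 733 RPM. The counting's use of strand was not given in the sources used here, so reads from the shared stretch cannot be assigned to Bmp6 alone.

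Bmp5 (chr9:75775364-75900310, plus strand) had a lowest, median and highest value of 98.7, 110.3 and 137 RPM in Sham and 115, 123 and 161 RPM in PM. It stood at 33.8, 25.5, 10.3, 28.9 and 32.7 RPM in Sham-OVA and at 65.1, 41.6, 15.4 and 13.4 RPM in PM-OVA. Every OVA library lay below every saline library. Its log2 difference was -2.20 in both comparisons (SE 0.24 and 0.35, limma adjusted p = 2.50e-06 and 2.58e-04), and in PM-OVA against PM it was -1.29 without the 3 shallowest libraries. With the trend on transcript length and GC removed the differences were -1.36 and -1.35, still called. Of the 100-base windows along its exons 45.3% also lie in the antisense gene Gm26903, which was listed at no more than 0.307 RPM in any library.

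Bmp4 is a signal of the lung mesenchyme in branching, and Bmp2, its closest relative, is known in endothelium. Bmp4 (chr14:46383520-46390669, minus strand) had a lowest, median and highest value of 60.7, 88.5 and 108 RPM in Sham and 63.9, 84.9 and 106 RPM in PM. It stood at 54.9, 41.7, 56.9, 48.5 and 48.4 RPM in Sham-OVA and at 70.6, 58.3, 38.9 and 48.5 RPM in PM-OVA. The Sham groups did not overlap, and in the PM groups PM-OVA replicate 1 lay within the saline range. On the log2 scale the difference was -0.79 (SE 0.16, limma adjusted p = 5.87e-04) and -0.66 (SE 0.19, limma adjusted p = 0.00807). The call was lost under 3 of the 5 other scalings or count models in Sham-OVA against Sham (-0.49 to -0.34 over the 5) and under all 5 in PM-OVA against PM (-0.30 to -0.29), where it was also lost without the 3 shallowest libraries (-0.39, adjusted p = 0.109). The last of these fits kept only PM-OVA replicates 1 and 2. The antisense gene Gm15222, which overlaps Bmp4 by 1764 bases and shares 0 of the 100-base windows along its exons, reached 16.2 RPM.

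Bmp2 (chr2:133552159-133562885, plus strand) was lower in level than the other BMPs. Its lowest, median and highest values were 7.54, 8.08 and 12.3 RPM in Sham and 7.57, 8.86 and 12.8 RPM in PM. It stood at 5.84, 4.29, 0.621, 4.78 and 5.04 RPM in Sham-OVA and at 5.64, 4.10, 4.38 and 2.54 RPM in PM-OVA. Every OVA library lay below every saline library, and the value of 0.621 RPM in Sham-OVA replicate 3 rested on 2 reads, under the floor of 3 reads. The log2 difference was -1.25 (SE 0.36, limma adjusted p = 0.00624) and -1.16 (SE 0.22, limma adjusted p = 6.36e-04), and the former was -0.80 without Sham-OVA replicate 3 (adjusted p = 4.03e-04) and -0.74 with quantile normalisation, where the latter was -0.70, still called.

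The summed level of the 4 BMPs fell from 128 ± 12.5 RPM per kb in Sham to 39.4 ± 6.39 in Sham-OVA, and from 133 ± 15.5 in PM to 45.8 ± 20.9 in PM-OVA (SD, n = 7, 5, 7 and 4). Within that sum the share of Bmp4 went from 30.7% ± 6.62 to 57.8% ± 13.0 and from 28.9% ± 7.15 to 56.6% ± 13.1. The share of Bmp6 went from 45.1% ± 7.77 to 23.2% ± 7.22 and from 44.4% ± 12.1 to 24.0% ± 8.37. Bmp6 thus held the largest share in saline lung and Bmp4 in OVA lung.

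**Figure D3:**
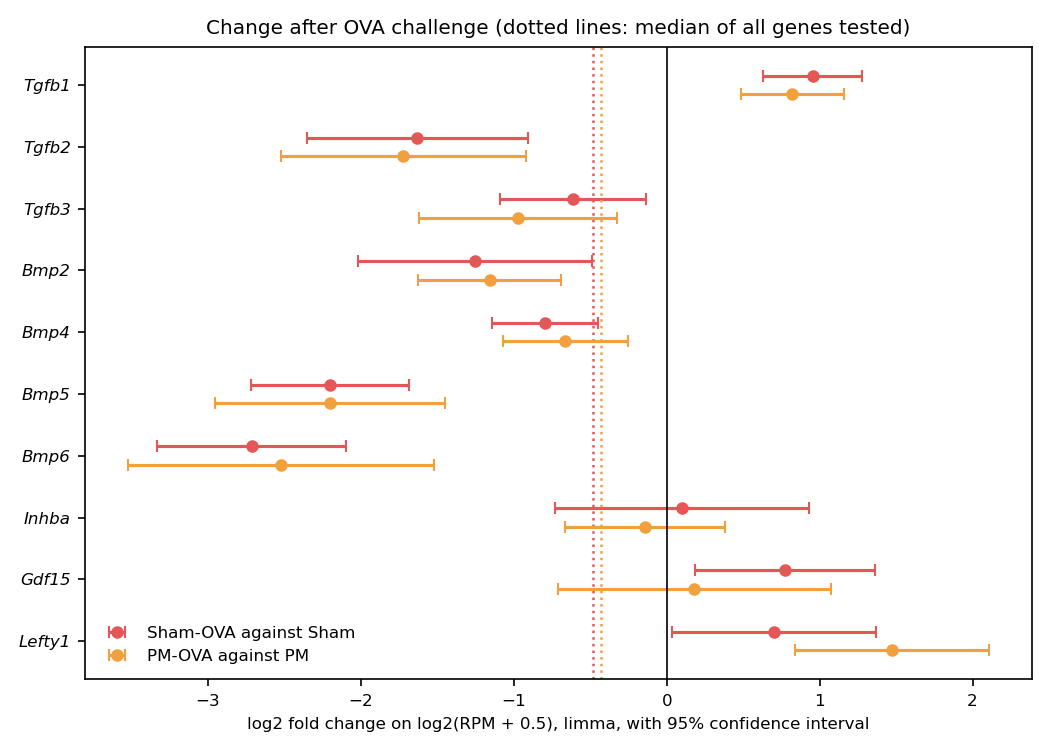
Log2 difference of each ligand after OVA in the Sham and in the PM offspring, on log2(RPM + 0.5), with the 95% confidence interval from limma, and dotted lines at the median of all 16795 genes tested (-0.48 and -0.43). Tgfb1 lies above 0 in both comparisons, Tgfb2, Bmp2, Bmp5 and Bmp6 lie below the dotted lines, and the intervals of Tgfb3 and Bmp4 cross the line of their own comparison.

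Inhba encodes the subunit of activin A, which signals as TGF-β does through Smad2 and Smad3. Inhba (chr13:16011851-16031621, plus strand) had a lowest, median and highest value of 1.45, 3.17 and 4.02 RPM in Sham and 1.54, 2.41 and 4.99 RPM in PM. It stood at 3.20, 4.81, 0.621, 7.25 and 2.56 RPM in Sham-OVA and at 2.55, 2.24, 1.99 and 2.36 RPM in PM-OVA. The groups overlapped in both comparisons, and Sham-OVA held both the highest and the lowest library, the latter again on 2 reads. Inhba differed by 0.10 on the log2 scale (95% confidence interval -0.73 to 0.93, limma adjusted p = 0.832) and -0.14 (-0.67 to 0.38, limma adjusted p = 0.613). With the trend of the differences on transcript length and GC removed it was called higher in both, at 1.30 and 1.07.

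Gdf15 is a distant member of the family that rises in many kinds of cell stress and acts through Gfral, a receptor known from the brainstem. Gdf15 (chr8:70629393-70632456, minus strand) had a lowest, median and highest value of 1.205, 2.91 and 4.56 RPM in Sham and 1.79, 3.79 and 10.97 RPM in PM. It stood at 3.06, 4.14, 7.77, 6.13 and 4.53 RPM in Sham-OVA and at 2.69, 7.34, 5.18 and 3.45 RPM in PM-OVA. In Sham-OVA 2 of 5 libraries lay above all Sham libraries, and the PM-OVA libraries all lay within the PM range. The upper end of that range rested on PM replicate 5 (10.97 RPM). The next highest PM library stood at 5.56 RPM, below PM-OVA replicate 2 (7.34 RPM). When 1 library was left out, the log2 difference for the PM groups ranged from -0.05 to 0.42 and was not called. With all libraries Gdf15 differed by 0.77 on the log2 scale (SE 0.28, limma adjusted p = 0.0217) for the Sham groups and 0.18 (SE 0.41, limma adjusted p = 0.715) for the PM groups. The first was not called without Sham-OVA replicate 4 (0.70, adjusted p = 0.0543), with all libraries drawn down to one depth (0.56, adjusted p = 0.220), with the trend on transcript length and GC removed (0.44, adjusted p = 0.199) or with the replicate number as a block (0.62, adjusted p = 0.135), while quantile normalisation, DESeq2 and edgeR gave 1.25 to 1.29 and called it. Gfral was listed at 0 in every library.

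Lefty1 is known from the embryo, where it limits Nodal to one side of the body. Lefty1 (ENSMUSG00000038793, chr1:180935022-180938400, plus strand) had a lowest, median and highest value of 0.751, 2.12 and 3.07 RPM in Sham and 1.04, 1.38 and 2.46 RPM in PM. It stood at 3.89, 1.58, 5.59, 3.35 and 4.89 RPM in Sham-OVA and at 2.35, 5.56, 6.37 and 8.17 RPM in PM-OVA. In Sham-OVA 4 of 5 libraries and in PM-OVA 3 of 4 lay above all libraries of their saline group. The levels were low, with 13 to 72 reads per library.

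The log2 difference of Lefty1 was 0.70 (SE 0.31, limma adjusted p = 0.0592) for the Sham groups and 1.47 (SE 0.29, limma adjusted p = 9.32e-04) for the PM groups, at percentile 83.8 and 95.3 of all genes tested. The former was called without Sham replicate 3 (0.79, adjusted p = 0.0460), without Sham-OVA replicate 2 (0.95, adjusted p = 0.0127) and under all 5 other scalings or count models (1.02 to 1.24), and in 10 of 28 alternatives in all. It was not called without Sham-OVA replicate 3, the shallowest library (0.56, adjusted p = 0.107), with all libraries drawn down to one depth (0.63, adjusted p = 0.161) or with the trend on transcript length and GC removed (0.41, adjusted p = 0.236). The latter was called under all 27 alternatives that kept the adjusted p of 0.05, and was 1.03 (adjusted p = 0.0170) without the 3 shallowest libraries. The difference between both responses, tested as the interaction, was 0.77 (SE 0.44, unadjusted p = 0.0939, limma adjusted p = 1). Lefty2, its close paralogue, shares 5.85% of the 100-base windows of Lefty1 and was listed at 0 in every library, and the mean level of Nodal was at most 0.3898 RPM in any group.

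Level and depth ran together within the OVA libraries. In the 3 shallowest of them Tgfb2 (4.66 to 10.6 RPM), Tgfb3 (18.3 to 20.4 RPM), Bmp5 (10.3 to 15.4 RPM) and Bmp6 (12.7 to 24.6 RPM) lay below all 6 deeper OVA libraries, whose values were 18.96 to 41.4, 34.0 to 69.1, 25.5 to 65.1 and 34.3 to 90.6 RPM. Lefty1 ran the other way, at 5.59 to 8.17 RPM in the shallow libraries against 1.58 to 5.56 RPM in the deeper ones. Tgfb1 stood at 174 to 202 RPM against 127 to 186 RPM, with overlap. Tgfb1, Tgfb2, Bmp2, Bmp5 and Bmp6 were called in both OVA comparisons without the 3 shallowest libraries and also with all libraries drawn down to one depth. Neither setting can separate depth from challenge. Drawing reads at random leaves the expected RPM of a gene unchanged. The deeper OVA libraries (at most 12355561 reads) were still shallower than every saline library (at least 13089691 reads). The part of depth in the levels was not tested.

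**Figure D4:**
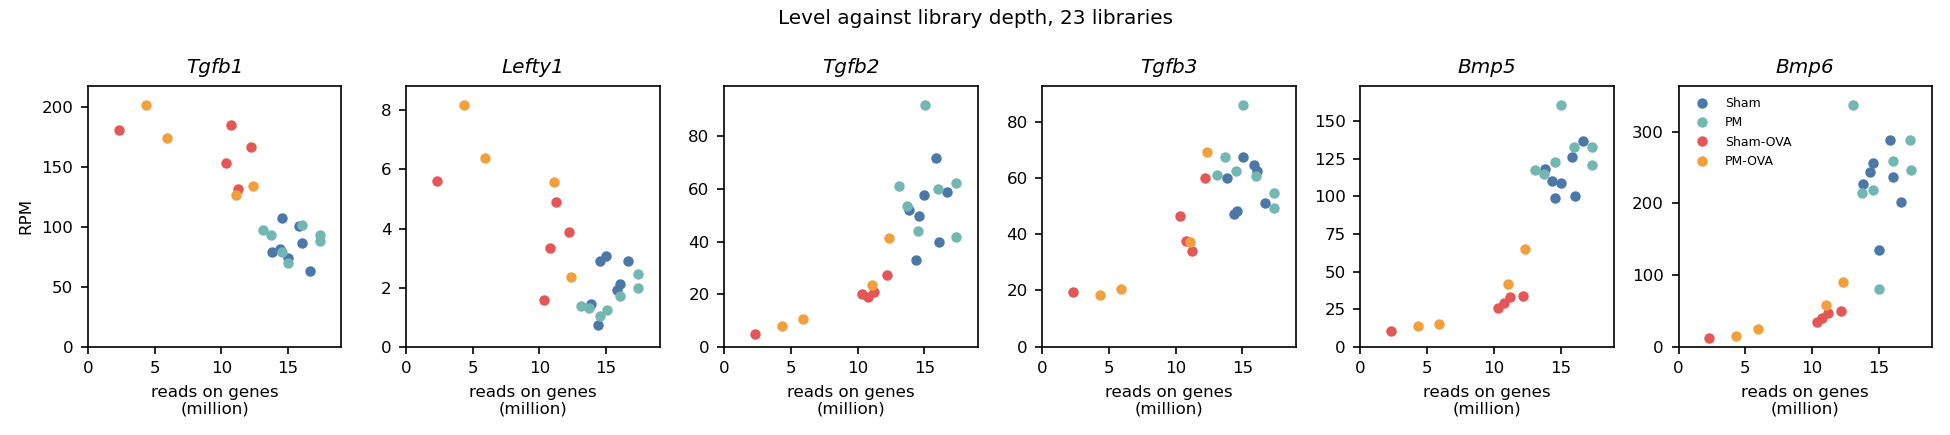
Level in RPM of 6 ligand genes against the number of reads on genes of each of the 23 libraries, coloured by group. The OVA libraries all lie to the left of the saline libraries, and among them Tgfb2, Tgfb3, Bmp5 and Bmp6 are lowest, and Lefty1 highest, in the 3 shallowest libraries.

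In saline lung the order of levels per kilobase of exon, as the mean of Sham, was Bmp6 (58.2 ± 12.5), Bmp4 (39.3 ± 8.22), Bmp5 (28.4 ± 3.46), Tgfb3 (16.9 ± 2.45), Tgfb1 (16.8 ± 3.04), Tgfb2 (8.96 ± 2.21), Bmp2 (2.56 ± 0.484), Gdf15 (1.51 ± 0.556), Lefty1 (1.23 ± 0.493) and Inhba (0.452 ± 0.148 RPM per kb, SD, n = 7). The ranges of mean ± SD met for Bmp6 and Bmp4, for Bmp4 and Bmp5, for Tgfb3 and Tgfb1 and for Gdf15 and Lefty1. PM had the same order, with Bmp6 at 60.2 ± 20.5 and Inhba at 0.423 ± 0.171 RPM per kb. In Sham-OVA Tgfb1 led at 32.5 ± 4.35 RPM per kb, followed by Bmp4 (22.3 ± 2.68), Tgfb3 (11.7 ± 4.47), Bmp6 (9.44 ± 3.78) and Bmp5 (6.52 ± 2.36), and the ranges of the last 3 met. Inhba was last in each group. The order rests on the length used: with the longest transcript in place of all exons, Tgfb1 followed Bmp6 and Bmp4 in Sham, at 32.96 ± 5.96 RPM per kb, above Bmp5 (29.9 ± 3.64) and Tgfb3 (16.9 ± 2.45). In PM-OVA Tgfb1 led at 31.6 ± 6.97 RPM per kb before Bmp4 at 24.1 ± 6.04, with ranges that met.

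No ligand was called between the saline-challenged offspring of PM2.5 and Sham dams. In PM against Sham, where 0.00% of all genes were called, limma called 0 of 10 members, 0 had an unadjusted p under 0.05, and DESeq2 and edgeR called 0. The largest log2 differences were 0.45 for Gdf15 (95% confidence interval -0.23 to 1.12) and -0.31 for Lefty1 (-0.78 to 0.17), while Tgfb1 differed by 0.08 (-0.16 to 0.32), Bmp5 by 0.17 (-0.01 to 0.36) and Bmp6 by -0.02 (-0.56 to 0.51). That of Gdf15 ranged from 0.21 to 0.60 when 1 library was left out, and PM replicate 5 (10.97 RPM) stood apart in it.

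Between the challenged groups, PM-OVA against Sham-OVA, 0.00% of all genes and 0 of 10 members were called by limma, 0 members had an unadjusted p under 0.05, and DESeq2 and edgeR called 0 members (and 1 and 0 of all genes). The intervals were wide: the log2 difference was 0.47 for Lefty1 (95% confidence interval -0.50 to 1.44), -0.05 for Tgfb1 (-0.47 to 0.36), 0.09 for Tgfb2 (-1.23 to 1.41), 0.17 for Bmp5 (-0.99 to 1.34) and -0.15 for Gdf15 (-0.98 to 0.69). A log2 difference of 1 in either direction therefore lay outside the interval for Tgfb1, Gdf15 and Bmp4 (-0.36 to 0.53), while a rise of 1 lay inside it for Tgfb2, Lefty1 and Bmp5. The interaction of maternal exposure and challenge was called for 0.00% of all genes and for 0 of 10 members by limma, with 0 at an unadjusted p under 0.05 and 0 members by DESeq2 and edgeR (and 2 and 0 of all genes). The interaction of Gdf15 was -0.59 (SE 0.50) and that of Tgfb1 -0.13 (SE 0.21). The difference in which ligands passed the test in each maternal group, Gdf15 in one and Lefty1 in the other, was thus not shown to be a difference between the groups.

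The remaining ligands of the superfamily, 13 of 23 above the filter, gave 4 higher and 3 lower calls in each OVA comparison, beside 20.6% and 20.1% of all genes higher and 47.5% and 45.2% lower. Among the higher ones, Gdf3 and Amh stayed below 0.5 RPM in every saline library, at no more than 0.411 and 0.407 RPM. They passed the filter only through OVA libraries, so their calls were partly set by the filter and are given as description. Gdf3, a Nodal-like ligand, stood at 0.0173 ± 0.0297 RPM in Sham and 5.29 ± 1.49 RPM in Sham-OVA. It stood at 0.0779 ± 0.150 RPM in PM and 3.45 ± 0.787 RPM in PM-OVA. Gdf10 rose (log2 differences 0.52 and 0.88). Bmp3 fell (-1.58 and -1.68), as did Inhbb, another activin subunit (-1.35 and -0.96).

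Transcripts of the receptors and SMAD proteins of TGF-βs, activins and BMPs were mostly lower. Of all genes, 47.5% and 45.2% were lower and 20.6% and 20.1% higher in the OVA comparisons. Of 16 receptors and co-receptors tested, 0 were higher and 16 lower in Sham-OVA against Sham, and 0 were higher and 15 lower in PM-OVA against PM, with a median log2 difference of -1.53 and -1.31 beside -0.48 and -0.43 over all genes. Tgfbr2, the type II receptor of all 3 TGF-β isoforms, fell (log2 differences -2.32 and -2.37), and so did Bmpr2, a type II receptor of the BMPs (-2.11 and -2.06). Of 10 genes for SMAD proteins and SMURF ligases all 10 were lower in both comparisons, with a median of -1.48 and -1.59. Among them were Smad9 (-3.30 and -2.89) and Smurf2, a ubiquitin ligase that limits the pathway (-2.18 and -2.27).

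Of 13 genes for latent TGF-β storage and activation, 1 was higher and 8 lower in Sham-OVA against Sham and 0 and 7 in PM-OVA against PM, beside 20.6% higher and 47.5% lower, and 20.1% and 45.2%, of all genes. Their median was -0.46 and -0.81. Ltbp4, a matrix anchor of latent TGF-β, fell (log2 differences -1.90 and -1.498), and so did Thbs1, an activator of it (-1.11 and -1.84). Of 16 antagonists and modulators, 0 were higher and 10 and 8 lower, beside the same shares of all genes, with a median of -0.78 and -0.72. The BMP antagonist Chrdl1 fell (-2.61 and -2.65).

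Genes known to be induced by these ligands moved in both directions. Over all genes, 20.6% and 20.1% were higher and 47.5% and 45.2% lower in Sham-OVA against Sham and PM-OVA against PM. Of 13 TGF-β-induced genes, 4 were higher and 6 lower in Sham-OVA against Sham and 3 and 5 in PM-OVA against PM, with a median log2 difference of -0.40 and -0.48. Timp1, an inhibitor of matrix metalloproteinases, rose (log2 differences 4.21 and 3.21), and so did Tagln, a smooth muscle protein (1.30 and 1.25). Itga11, a collagen receptor of fibroblasts, fell (-1.03 and -1.44) at levels near the floor. Its means were 1.14 RPM in Sham and 0.298 in Sham-OVA, and 1.52 RPM in PM and 0.264 in PM-OVA, and its lowest value was 0 in both OVA groups. Of 11 BMP-induced genes, 2 were higher and 6 and 5 lower, with a median of -0.61 and -0.49. Smad6, Smad7, Smad9 and Bambi, among the lower ones, were also counted above with the SMAD proteins and the receptors. Likewise Ltbp2, a lower TGF-β-induced gene, was also counted with latent TGF-β storage. The transcriptional regulators Id2 (0.85 and 0.67) and Id3 (0.68 and 0.75) were the higher ones, and Tmem100, known in endothelium, fell (-3.14 and -2.88). Of 9 stress-response genes known to rise with Gdf15, 1 was higher and 2 lower in Sham-OVA against Sham and 0 and 3 in PM-OVA against PM. Sesn2 (-1.24 and -0.89) and Mdm2 (-0.66 and -0.78) fell.

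Markers of lung cell types moved in the same libraries. Beside them, 20.6% and 20.1% of all genes were called higher and 47.5% and 45.2% lower in the OVA comparisons. The summed level of 8 fibroblast markers was 2730 to 4269 RPM in Sham, 3328 to 7868 in PM, 1004 to 2471 in Sham-OVA and 1236 to 4040 in PM-OVA, and 5 of 8 were called lower in each OVA comparison. Of 8 smooth muscle and pericyte markers, 5 and 4 were lower and 3 higher in the OVA comparisons. Of 7 adipose markers tested, 3 and 5 were lower and 1 and 0 higher. The 8 alveolar type 1 markers summed to 5631 to 8603 RPM in Sham, 7296 to 7956 in PM, 3851 to 5132 in Sham-OVA and 4557 to 5220 in PM-OVA, with 6 of 8 lower in each. The 8 endothelial markers summed to 2681 to 5710, 1617 to 5455, 2974 to 3826 and 3124 to 4358 RPM in the same order, with 4 of 8 lower and 2 higher, near the shares of all genes. The 8 interstitial macrophage markers rose from 162 to 299 RPM in Sham and 248 to 436 in PM to 1671 to 2554 in Sham-OVA and 1503 to 2201 in PM-OVA, with 7 and 6 of 8 called higher. The 8 eosinophil and mast cell markers summed to 2.19 to 4.24 RPM in Sham and 2.05 to 6.65 in PM. They summed to 28.3 to 131 RPM in Sham-OVA and 24.1 to 31.8 in PM-OVA, with 7 of 8 called higher in each OVA comparison and 0 and 1 lower. The 8 lymphocyte and plasma cell markers went from at most 224 RPM in any saline library to at least 6359 RPM in any OVA library, with 4 of 8 called higher and 1 lower (Cd8a) in each OVA comparison. Jchain and Mzb1, both plasma cell genes, made up 97.5 to 98.8% of that sum in the OVA libraries, and the other 6 markers summed to 61.9 to 174 RPM in saline and 98.8 to 268 RPM in OVA libraries. No marker of these lists was at 0 in every library, and the part of cell composition in the ligands' levels was not tested.

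Within groups, some of the ligands that were lower after OVA varied together and others did not. Over the 23 libraries, after each group's mean was removed, Tgfb2 correlated with Bmp5 (r = 0.911), Tgfb3 (r = 0.897) and Bmp2 (r = 0.793), and Tgfb1 ran against Bmp5 (r = -0.582). Bmp2 and Bmp6 correlated at r = 0.480, and Bmp4 correlated with Bmp6 at r = 0.011, with Bmp2 at r = 0.140 and with Bmp5 at r = 0.307. For each member the pair of genes with the closest pattern was taken. They were Agtrap (r = 0.897) and Spats2 (r = 0.857) for Tgfb1, Steap3 (r = 0.961) and Nt5e (r = 0.952) for Tgfb2, and Dab2 (r = 0.956) and Ltbp1 (r = 0.952), the latter a matrix anchor of latent TGF-β, for Tgfb3. Among the BMPs they were Zc3h15 (r = 0.944) and Mitf (r = 0.926) for Bmp2, Faah (r = 0.757) and Tifa (r = 0.756) for Bmp4, Npnt (r = 0.978) and Septin8 (r = 0.977) for Bmp5, and Arap2 (r = 0.969) and Pitpnc1 (r = 0.963) for Bmp6. The low ligands ran most closely with Usp42 (r = 0.840) and Adamts4 (r = 0.827) for Inhba, Tspan11 (r = 0.845) and Hr (r = 0.756) for Gdf15, and Gatd1 (r = 0.827) and Zfp141 (r = 0.816) for Lefty1. These points share libraries and depth, and the coefficients are a description.

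**Figure D5:**
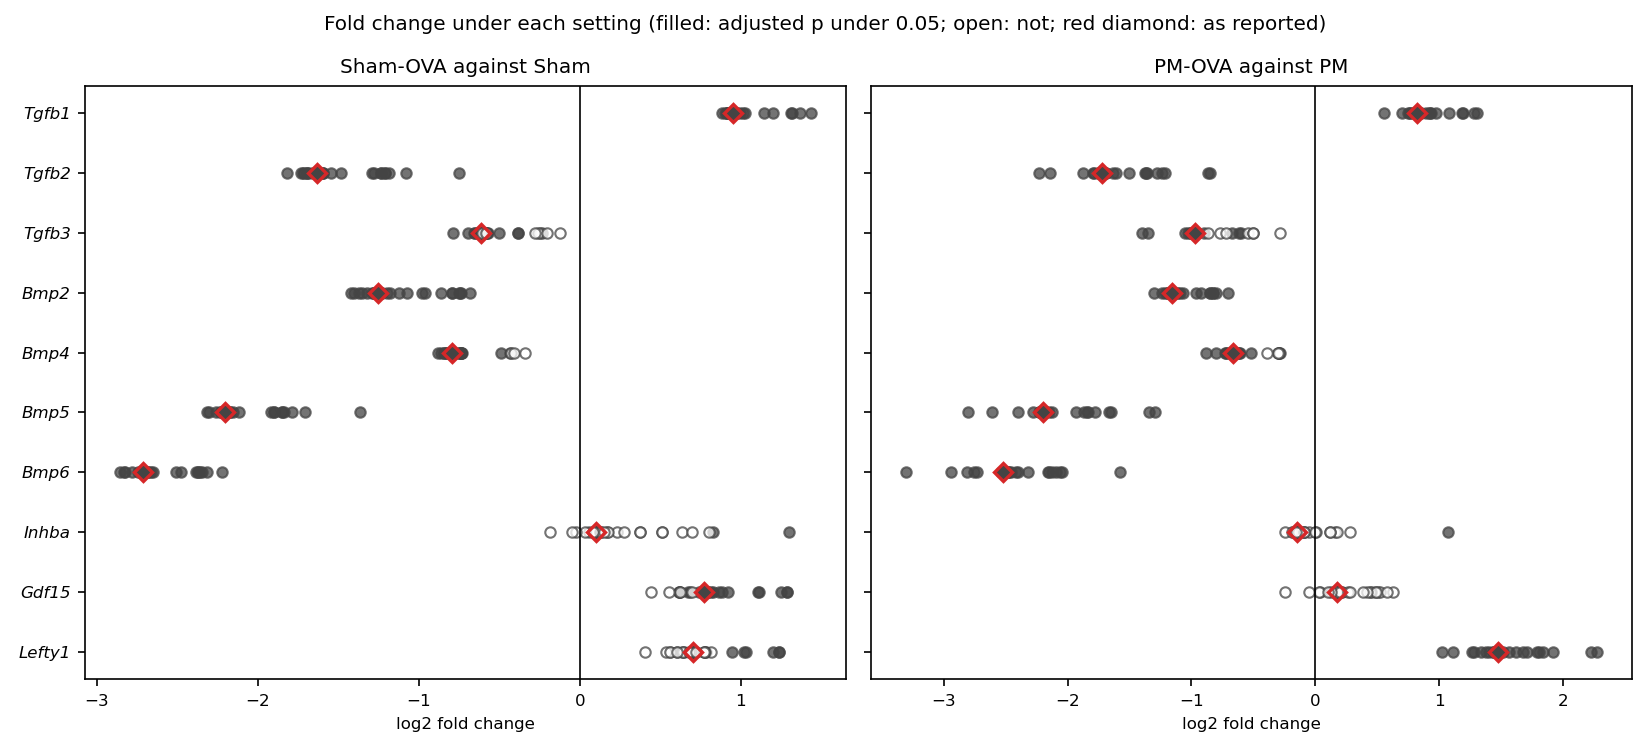
Log2 difference of each ligand in Sham-OVA against Sham (left) and PM-OVA against PM (right) under every processing alternative, filled where the adjusted p was under 0.05 and open where not, with a red diamond for the value as reported. Tgfb1, Tgfb2, Bmp2, Bmp5 and Bmp6 are filled throughout on both sides, and Inhba spans 0.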

How the data were processed

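RNA-Seq of lung from 7 Sham, 7 PM, 5 Sham-OVA and 4 PM-OVA offspring was used, grouped by the treatment in the labels. Per the study's methods, the authors trimmed reads with Trimmomatic, mapped them to GRCm38 with Bowtie2 and quantified genes in SeqMonk, and the submitters' processing notes name bcl2fastq and mm10. The deposited values are RPM of the authors in 1 table of 35322 genes. The table is named for RPKM, but all values were whole multiples of 1 read within 0.01 reads whatever the gene's length, so the planned test for normalised values was run on RPM and the reads were recovered. How strand was counted was not given in the sources used here.

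The 16795 genes that reached 0.5 RPM in 4 or more of the 23 libraries went into limma 3.58.1 (R 4.3.3, trend) on log2(RPM + 0.5), per pair of groups and, for the interaction, over 4 groups, with Benjamini-Hochberg adjustment. Alternatives changed the pseudocount, filter, scaling (quantile, median of ratios, TMM), model (DESeq2 1.42.0, edgeR 4.0.16), weights, replicate block and libraries. Alternatives added after seeing the data removed the trend of the differences on transcript length and GC, drew all libraries to one depth, left out the 3 shallowest libraries or changed the length used for shares. The script was tested on simulated data. Lengths and positions are from GENCODE vM21, and upstream windows from RefSeq. Named beside the members are, per list, the 2 genes with the largest rise and fall called in both OVA comparisons, and the 2 genes most like each member. Some genes that this rule names are not reported here. The members and lists were chosen with earlier results of these data known. The labels do not tie libraries to litters, and animals may share a dam, so p-values measure the spread between these samples.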

Additional observations from a re-analysis of the deposited data

Results flagged for a closer look

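In PM, which has 7 libraries, replicate 5 stood apart from the other 6 by Dixon's gap test in 4 ligands. Tgfb2 was 91.85 RPM there, with the next highest library at 62.4 RPM. Bmp5 was 160.6 RPM (next 133.1), Inhba was 4.988 RPM (next 2.872) and Gdf15 was 10.97 RPM (next 5.56). The test was run on 40 sets of libraries, 10 ligands in 4 groups, and 4 were picked out, where chance picks out about 1 in 20. The same library held the lowest Bmp6 of the saline libraries, 80.9 RPM. Without PM replicate 5, 8 members were called in PM-OVA against PM, as with it.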

How the results depend on the processing

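Of 1520 comparisons of a reported value with an alternative, 1460 stayed on the same side of the threshold, 44 lost the call or count, 15 gained it and 1 turned: Inhba in PM-OVA against PM was 1.07 and called higher with the trend on transcript length and GC removed, against -0.14 as reported. In 96 of the 1460 a difference that was not called changed sign. The larger part of the 1520 came from the 3 comparisons in which no member was called as reported. All 44 losses fell in the OVA comparisons, so the calls there were less stable than the pooled count shows. At the study's threshold limma called 0 members in each OVA comparison (8 as reported). Their number ranged over 7 to 9 and 7 to 8 when 1 library was left out. Leaving out 1 library left 0 members called in the other 3 comparisons. In the interaction, array weights called 3 members, Tgfb2 (-0.999), Tgfb3 (-0.90) and Bmp5 (-0.89), where the fit of the weights did not converge and 4616 genes were called, against 0 as reported; the cause was not tested. Without the 3 shallowest libraries, which leaves only replicates 1 and 2 in PM-OVA, the interaction called 721 genes and 0 members.

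The replicate numbers used here are those of the sample titles. In Sham-OVA and PM-OVA they differ from the numbers in the library names, and a pairing by the library names was not tested. Deviations of libraries with the same title number correlated at -0.0665 to 0.115 for Sham-OVA and Sham and -0.101 to 0.0625 for PM-OVA and PM. They correlated at -0.248 to 0.104 for PM and Sham and -0.311 to 0.617 for PM-OVA and Sham-OVA. In that order, 2 of 5, 1 of 4, 0 of 7 and 2 of 4 correlated best with their own title number. With the replicate block, 6 members were called in Sham-OVA against Sham, 7 in PM-OVA against PM and 0 in the other comparisons. The members not called with it were Tgfb3 in both (-0.61 and -0.86, adjusted p = 0.0885 and 0.0677) and Gdf15 in Sham-OVA against Sham. In Sham-OVA replicate 3, Bmp2 and Inhba, at 2 reads each, lay under the floor of 3 reads, while Lefty1 had 18 reads and Gdf15 25.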
